A study of Homo sapiens with 12 samples.

Results

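Glutathione S-transferases couple the tripeptide glutathione to reactive, mostly lipophilic compounds, which makes these compounds easier to export and break down. The soluble enzymes fall into classes such as alpha, omega, zeta and kappa, while the microsomal enzymes are small membrane proteins of an unrelated fold. In the liver, alpha-class enzymes are among the abundant detoxification proteins of hepatocytes, where they also reduce organic hydroperoxides and bind bile pigments and hormones. The 9 genes described here were taken by their symbols out of 16705 genes in the expression table: 3 of the alpha class (GSTA1, GSTA2 and GSTA4), GSTO1 (omega), GSTK1 (kappa), GSTZ1 (zeta), and the 3 microsomal genes MGST1, MGST2 and MGST3.

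RNA was sequenced from human liver spheroid co-cultures in 12 libraries, with 3 in each of 4 groups. The spheroids combined HepG2/C3A, a clonal subline of HepG2 hepatoma cells with hepatocyte features, with a smaller number of LX-2 cells, an immortalized line of activated hepatic stellate cells. One group was left untreated for 24 h and another was exposed for 24 h to 1% total parenteral nutrition (TPN), a clinical intravenous mixture of amino acids, electrolytes, glucose, lipid emulsion, trace elements and vitamins, and the other two groups were untreated or exposed for 144 h. All groups shared the same 2 established lines and the same serum-containing medium, and RNA of many pooled spheroids made up a library, so no value refers to 1 cell type or 1 spheroid. In such bulk samples, fewer cells of a type and less RNA per cell cannot be told apart. The replicates are described in the study as independent experiments, and the labels give only their numbers.

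Expression is given as FPKM, the number of fragments scaled to transcript length and to the mapped fragments of the library, which permits levels of different genes to be compared per length. Sums of FPKM per library lay between 561657 and 583722. Steps between low values put the depth at about 18800000 fragments per library (18300000 to 19400000). At that depth the lowest value of any of the 9 genes, 1.31 FPKM for GSTA1, corresponds to about 23 fragments, and the corresponding minimum was about 66 for GSTA2 and at least 244 for each of the other 7. Replicates correlated at 0.993 to 0.996 over the genes tested, and untreated and exposed libraries at 0.992 to 0.994 after 24 h and at 0.977 to 0.981 after 144 h. Hepatocyte markers were abundant, with a mean ALB level of 4392 FPKM in untreated spheroids at 24 h, whereas CYP7A1, the bile acid synthesis enzyme, did not exceed a group mean of 0.02 FPKM. Of the 11 stellate markers examined, DES was near 0 (group means up to 0.06 FPKM), and COL1A1, a fibrillar collagen gene, had a mean of 15.1 FPKM in untreated spheroids at 24 h.

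The sequences before the start of 3 genes are shown because these genes changed most with TPN, and because GSTA1 and GSTA2 are nearly alike in this stretch. Each run is the 250 bases before the annotated start in RefSeq on GRCh38.p14, read in the direction of transcription, and capitals mark the bases at which GSTA1 and GSTA2 differ. GSTA1 was read on the minus strand of chr6:52803817-52804066, GSTA2 on the minus strand of chr6:52763476-52763725, and MGST1 on the plus strand of chr12:16347395-16347644, which is 1 of the 3 starts listed for it.
GSTA1: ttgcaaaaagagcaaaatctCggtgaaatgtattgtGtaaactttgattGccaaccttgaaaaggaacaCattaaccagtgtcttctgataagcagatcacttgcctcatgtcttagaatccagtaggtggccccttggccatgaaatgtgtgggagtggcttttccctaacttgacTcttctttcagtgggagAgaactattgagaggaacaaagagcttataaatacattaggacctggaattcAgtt
GSTA2: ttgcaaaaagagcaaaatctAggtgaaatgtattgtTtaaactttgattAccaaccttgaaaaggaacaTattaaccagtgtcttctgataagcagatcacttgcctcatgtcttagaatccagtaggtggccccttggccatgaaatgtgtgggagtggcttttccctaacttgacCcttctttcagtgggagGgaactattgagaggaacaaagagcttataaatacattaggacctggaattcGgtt
MGST1: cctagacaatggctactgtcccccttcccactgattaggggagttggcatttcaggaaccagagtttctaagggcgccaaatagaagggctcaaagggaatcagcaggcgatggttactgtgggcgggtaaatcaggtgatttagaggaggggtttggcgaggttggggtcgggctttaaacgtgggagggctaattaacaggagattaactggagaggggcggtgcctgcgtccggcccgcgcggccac

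GSTA1 and GSTA2 differed at 7 of these 250 bases (97.2% identity), while the alpha-class gene GSTA4 matched GSTA1 at 44.5% and GSTA2 at 46.2% after alignment. Transcripts of different classes gave similar percentages when aligned in the same way, such as 44.1% for GSTA1 and MGST3. Searched on both strands, the antioxidant response core TGACNNNGC, present in 10.9% of 35116 windows of this length, was matched in GSTO1, at 226 to 218 and at 161 to 153 bases before the start, and in GSTA4, at 9 to 1 bases before it. No match to TGANTCA, an AP-1 motif present in 6.57% of windows, was found in the windows of the 8 genes that have an entry. MGST2 had no entry. The GSTA1 and GSTA2 windows were poor in G and C (40.8% and 40.4%, against a median of 58.0% over all windows), and the MGST1 window shown had 56.4%. These matches describe letters in a window and were not tested for binding.

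In untreated spheroids at 24 h, the levels of the 9 genes spanned a wide range. GSTO1, whose product reduces dehydroascorbate and takes part in the handling of arsenic, stood highest at a mean of 293 FPKM. MGST1 (180 FPKM) and MGST2 (177 FPKM) followed, and their ranges over 3 libraries overlapped. GSTK1 (67.3 FPKM), MGST3 (37.6 FPKM), GSTZ1 (21.5 FPKM) and GSTA4 (18.1 FPKM) came next without overlap between neighbours. GSTA2 (4.93 FPKM) and GSTA1 (4.37 FPKM) were lowest and overlapped. Hence the classical alpha-class pair of hepatocytes was the least abundant of the 9 in these spheroids. GSTO1 kept the first place in all 4 groups. The order below it changed with TPN at 144 h, when GSTA2 moved from the eighth place in the untreated spheroids to the sixth, at 17.6 FPKM, with a range that overlapped that of GSTZ1 (15.2 FPKM).

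**Figure D1:**
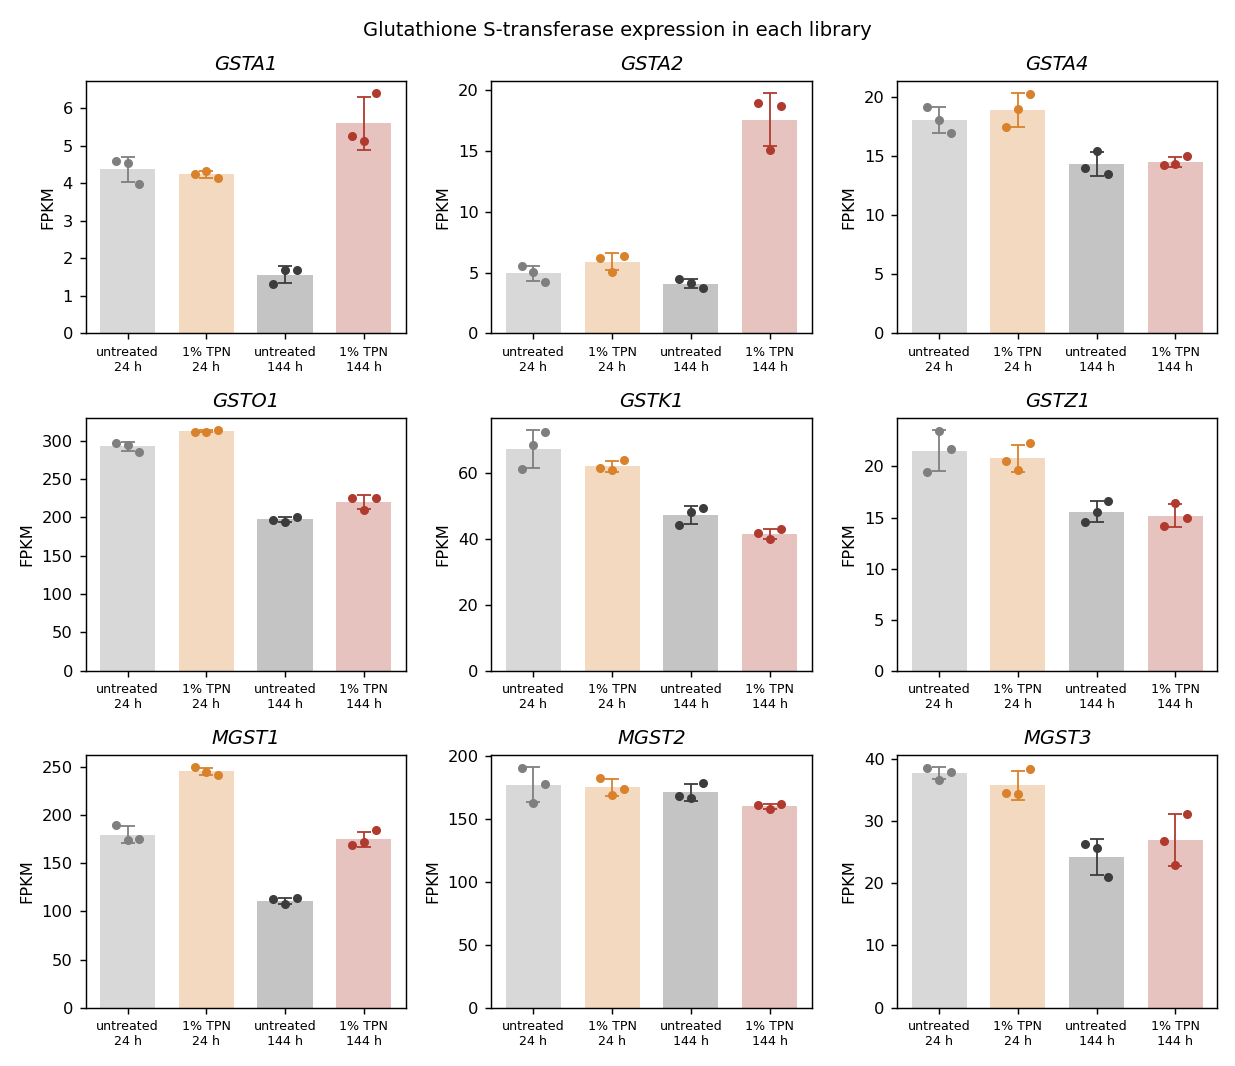
FPKM (vertical axes, each from 0 and scaled to its gene) of the 9 glutathione S-transferase genes in the 4 groups. Bars are means, error bars SDs and points the 3 libraries of a group. GSTA1 and GSTA2 stand apart from every other panel in the exposed group at 144 h, and MGST1 is higher with TPN at both times.

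Exposure to TPN for 24 h raised 1 of the 9 genes, MGST1, and lowered none at an adjusted p below 0.05 (limma, adjusted over the 11713 genes with a mean of at least 0.5 FPKM, which all 9 passed). Over all genes tested, 10.5% were called at 24 h, 5.04% upward and 5.46% downward. After 144 h, 4 of the 9 rose (GSTA1, GSTA2, MGST1 and GSTO1) and GSTK1 fell, against 52.5% called over all genes, 24.2% upward and 28.3% downward. The share called, 5 of 9, was close to that background. GSTA1, GSTA2 and MGST1 also passed the log2 fold-change threshold of 0.58 that defines differentially expressed genes (DEGs) here, which 9.48% of all genes did, 5.75% upward. The median log2 fold change of the 9 was -0.01 at 24 h and 0.15 at 144 h, beside -0.0045 and -0.018 over all genes tested. None of the 9 was a DEG at 24 h, compared with 0.914% of all genes. The groups did not overlap for 2 of the 9 at 24 h and for 6 of the 9 at 144 h, compared with 29.9% and 57.3% of all genes.

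The largest responses were those of the alpha-class pair. GSTA1, gene number 2938 at chromosome 6, 52787918 to 52826894 in the GRCh38.p13 annotation of the table, encodes a main hepatocyte transferase. It measured 4.58, 4.55 and 3.99 FPKM in untreated spheroids at 24 h and 4.25, 4.32 and 4.14 FPKM with TPN at that time. At 144 h, the untreated libraries had 1.31, 1.70 and 1.68 FPKM and the exposed ones 5.26, 5.12 and 6.40 FPKM. Thus the groups overlapped after 24 h, and after 144 h every exposed library was above every untreated one. On log2(FPKM + 0.1), the log2 fold change was -0.04 ± 0.11 (SE, adjusted p = 0.860) at 24 h and 1.78 ± 0.11 (adjusted p = 1.41e-08), a 3.43-fold increase, at 144 h. The untreated level fell between the 2 times by 1.43 on the log2 scale (adjusted p = 3.84e-08). The mean with TPN at 144 h was 5.59 ± 0.702 FPKM (SD, n = 3), and that of untreated spheroids at 24 h was 4.37 ± 0.332 FPKM. Every exposed 144 h library was above every untreated 24 h one, and this difference was not tested. The contrast at 144 h and the contrast over time share the untreated 144 h libraries.

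GSTA2 (gene number 2939, chromosome 6, 52726837 to 52800091), the close relative of GSTA1 that likewise conjugates glutathione and reduces lipid hydroperoxides, had 5.52, 5.02 and 4.26 FPKM in untreated spheroids at 24 h and 6.23, 5.08 and 6.33 FPKM in exposed ones. At 144 h the untreated libraries had 4.47, 4.12 and 3.70 FPKM, while the exposed libraries had 18.96, 15.05 and 18.69 FPKM. The exposed 144 h libraries were far above all 9 others, and the groups overlapped at 24 h. The log2 fold change was 0.25 ± 0.12 (adjusted p = 0.209) at 24 h, with a 95% interval from 0.000046 to 0.50, and 2.07 ± 0.12 (adjusted p = 7.75e-09), or 4.20-fold, at 144 h. In contrast to GSTA1, the untreated level of GSTA2 over time gave a log2 change of -0.26 (adjusted p = 0.0588) and was not called. This result was close to the threshold, and the fall was called in 7 of 22 alternative runs, whose adjusted p-values went from 0.0167 to 0.539. At 24 h the ratio of GSTA2 to GSTA1 was 1.13 ± 0.0714 without and 1.39 ± 0.188 with TPN, and 2.68 ± 0.644 and 3.15 ± 0.390 at 144 h (SD, n = 3). The ratio was therefore higher at 144 h than at 24 h in every library, and its ranges with and without TPN overlapped at both times.

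The values of this pair carry a limit, because GSTA1 and GSTA2 have near-identical transcripts. Their reference transcripts were 94.9% identical, and 110 windows of 100 bases, about 9.8% of those of either gene, were the same in both. The listed coordinates of the 2 genes also overlap. However, both listed spans reach past the RefSeq starts shown above, and they are listed on the plus strand, whereas RefSeq places both genes on the minus strand. Whether the listed overlap entered the assignment of fragments to the 2 genes was not tested. The authors divided shared fragments by estimation, so the split between both genes is less certain than their sum. No such window was shared between any other pair among the 9, nor between the pair and GSTA3 or GSTA5.

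GSTA4, the alpha-class enzyme with a preference for 4-hydroxynonenal and related products of lipid peroxidation, was not called at either time. Its level was 19.17, 18.04 and 17.00 FPKM untreated and 17.47, 19.04 and 20.30 FPKM exposed at 24 h, then 14.05, 15.45 and 13.50 FPKM untreated and 14.28, 14.31 and 15.02 FPKM exposed at 144 h. The exposed and untreated ranges overlapped at both times. The log2 fold change was 0.07 at 24 h (95% interval -0.07 to 0.20) and 0.02 at 144 h (95% interval -0.11 to 0.16), with adjusted p-values of 0.584 and 0.789. These intervals leave out changes of the size seen for GSTA1 and GSTA2 at 144 h.

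Among the microsomal genes, MGST1 was raised by TPN at both times. MGST1 (gene number 4257, chromosome 12, 16321528 to 16377192) encodes a membrane enzyme of the endoplasmic reticulum and outer mitochondrial membrane with transferase and peroxidase activity. Its level was 189.33, 174.19 and 175.00 FPKM untreated and 249.23, 244.43 and 241.63 FPKM with TPN at 24 h. At 144 h it was 112.21, 107.35 and 113.41 FPKM untreated and 168.84, 171.68 and 183.76 FPKM with TPN. All exposed libraries exceeded all untreated ones of the same time, and the exposed spheroids at 144 h overlapped the untreated ones at 24 h. TPN gave a log2 fold change of 0.45 ± 0.039 (adjusted p = 5.14e-06), or 1.37-fold, at 24 h and 0.65 ± 0.039 (adjusted p = 1.48e-08), or 1.57-fold, at 144 h.

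The other two microsomal genes did not pass the test at either time. MGST2, which can also form leukotriene C4, measured 190.63, 162.80 and 177.64 FPKM untreated and 182.17, 169.17 and 173.63 FPKM exposed at 24 h, and 168.46, 166.27 and 178.68 FPKM against 161.08, 157.78 and 161.55 FPKM at 144 h. Every exposed library was below every untreated one at 144 h, with a log2 fold change of -0.10 ± 0.049 (adjusted p = 0.117, 95% interval -0.20 to 0.01). With only the 6 libraries of that time in the model, the same value reached an adjusted p of 0.0404. MGST3, a microsomal enzyme with glutathione-dependent peroxidase activity, had 38.44, 36.56 and 37.89 FPKM untreated and 34.41, 34.24 and 38.39 FPKM exposed at 24 h, and 26.22, 25.61 and 20.94 FPKM against 26.84, 22.84 and 31.12 FPKM at 144 h. Relative to their mean, its replicates at 144 h were the most scattered of the microsomal genes, and the groups overlapped, giving a log2 fold change of 0.15 ± 0.099 (adjusted p = 0.233). Without the second exposed library of 144 h, MGST3 was called, at 0.26 (adjusted p = 0.0309).

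Of the remaining soluble enzymes, GSTO1 and GSTK1 changed by small amounts in opposite directions. GSTO1 had 297.43, 295.22 and 285.44 FPKM untreated and 311.52, 312.07 and 313.98 FPKM exposed at 24 h, and 197.05, 194.27 and 200.69 FPKM against 226.05, 210.31 and 225.66 FPKM at 144 h. Exposed libraries were above untreated ones without overlap at both times. The log2 fold change was 0.09 ± 0.030 (adjusted p = 0.0651) at 24 h, which was not called, and 0.16 ± 0.030 (adjusted p = 5.66e-04), or 1.12-fold, at 144 h. The 24 h value was called when only the libraries of that time entered the model (adjusted p = 0.0457) and without the second exposed library of 144 h (adjusted p = 0.0276).

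GSTK1 encodes the transferase of mitochondria and peroxisomes. It had 61.11, 68.40 and 72.43 FPKM untreated and 61.45, 60.90 and 63.99 FPKM exposed at 24 h, and 44.14, 48.23 and 49.48 FPKM against 41.75, 39.86 and 42.92 FPKM at 144 h. The ranges overlapped at 24 h and not at 144 h. With TPN the log2 fold change was -0.11 ± 0.057 (adjusted p = 0.258) at 24 h and -0.19 ± 0.057 (adjusted p = 0.0144), 0.879 times the untreated level, at 144 h. That call rested on single libraries, since the adjusted p was 0.0625 without the third untreated library of 144 h and 0.0593 without the second exposed one. Conversely, the 24 h value was called without the first untreated library of 24 h (-0.18, adjusted p = 0.0496). GSTZ1, the maleylacetoacetate isomerase of tyrosine breakdown, ranged from 19.44 to 23.44 FPKM untreated and from 19.66 to 22.26 FPKM exposed at 24 h, and from 14.53 to 16.60 FPKM against 14.18 to 16.43 FPKM at 144 h. Its groups overlapped at both times, with log2 fold changes of -0.05 (95% interval -0.21 to 0.11, adjusted p = 0.771) and -0.04 (95% interval -0.20 to 0.13, adjusted p = 0.707).

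**Figure D2:**
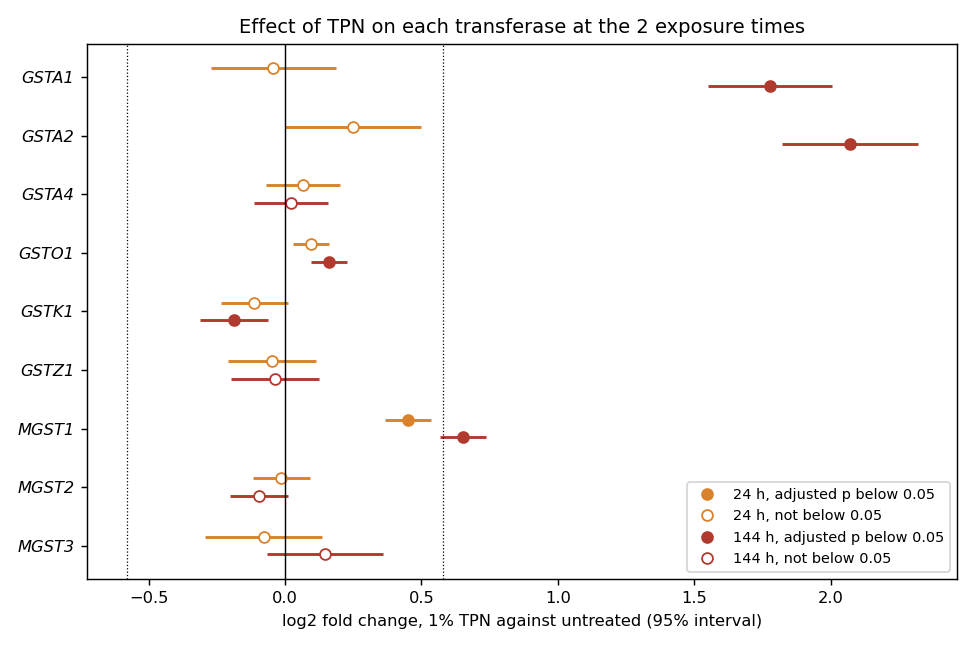
Log2 fold change on log2(FPKM + 0.1), 1% TPN against untreated, of the 9 genes at 24 h and 144 h (horizontal axis), with 95% intervals from limma over 3 libraries a group. Filled points passed an adjusted p of 0.05 and dotted lines mark 0.58 in either direction. GSTA1 and GSTA2 lie near 0 or 0.25 at 24 h and at 1.78 and 2.07 at 144 h, while MGST1 is to the right of 0 at both times.

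To determine whether the effect of TPN depended on the exposure time, the log2 fold change at 24 h was subtracted from that at 144 h within the same model. The difference was called for 3 of the 9 genes, all toward a larger effect at 144 h, against 30.4% of all genes, 14.1% in that direction. For GSTA1 and GSTA2 it also passed 0.58, as it did for 5.87% of all genes. It was 1.82 ± 0.15 for GSTA1 (adjusted p = 2.63e-06), 1.82 ± 0.16 for GSTA2 (adjusted p = 5.45e-06) and 0.20 ± 0.055 for MGST1 (adjusted p = 0.0135). For MGST1 the difference was smaller than its effect at either time, whereas for the alpha-class pair the difference was close to the whole effect at 144 h. For the other 6 genes the difference lay between -0.08 (MGST2) and 0.22 (MGST3), with adjusted p-values from 0.249 to 0.950. The exposed groups were sampled at 2 culture ages as well as after 2 exposure times, and these cannot be told apart.

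Without TPN, most of the 9 genes declined between 24 h and 144 h. In all, 7 of the 9 were lower and none was higher, compared with 72.6% of all genes called, 52.4% downward. The libraries of the 2 times did not overlap for 7 of the 9, and for 74.9% of all genes. The median log2 change of the 9 was -0.51, beside -0.18 over all genes tested. GSTA1 fell most (-1.43), followed by MGST1 (-0.69, adjusted p = 2.83e-09), MGST3 (-0.64, adjusted p = 5.17e-05), GSTO1 (-0.57, adjusted p = 1.64e-09), GSTK1 (-0.51, adjusted p = 2.54e-06), GSTZ1 (-0.46, adjusted p = 7.29e-05) and GSTA4 (-0.33, adjusted p = 3.13e-04). GSTA1, MGST1 and MGST3 passed the threshold of 0.58 as DEGs, against 19.0% of all genes, 12.2% downward, and GSTA1 alone passed it once libraries were scaled by median ratios or by quantiles. These scalings remove the overall shift of -0.18, and all 7 falls were still called under both. MGST2 was not called as deposited (-0.05, adjusted p = 0.403), and under median-ratio scaling it was higher (0.13, adjusted p = 0.0306). It held the second place in untreated spheroids at 144 h.

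Markers of both cell lines moved in the same comparisons. With culture time, 8 of 10 tested stellate markers fell and 1 rose, with COL1A1 lower by a log2 change of -2.93 and LOX higher by 1.37, and 4 of 8 tested hepatocyte markers fell and 2 rose, beside the 72.6% of all genes called. The summed stellate marker level went from 195.44 to 201.70 FPKM at 24 h to 217.58 to 228.42 FPKM at 144 h in untreated spheroids, a sum in which LOX alone rose from a mean of 56.6 to 146 FPKM. With TPN at 144 h, 7 of 8 hepatocyte markers and 5 of 10 stellate markers fell, and 1 stellate marker rose, beside 28.3% of all genes called downward and 24.2% upward. The summed hepatocyte marker level was 12780 to 13737 FPKM untreated and 10011 to 10732 FPKM exposed at 144 h, and the stellate sum was 236.65 to 239.07 FPKM in exposed spheroids. LOX, at a mean of 166 FPKM, made up most of that sum, whereas COL1A1 (-1.25), COL3A1 (-1.40), COL1A2 (-1.07) and VIM (-1.07) fell on the log2 scale. At 24 h, 3 hepatocyte markers fell, and 1 stellate marker rose and 1 fell, beside 5.46% of all genes called downward and 5.04% upward. The hepatocyte sum was then 11597 to 11949 FPKM untreated and 10704 to 10746 FPKM exposed, and the stellate sum of exposed spheroids was 186.75 to 191.91 FPKM. The part of these marker changes in the transferase results was not tested.

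When FPKM were added over the 9 genes, the sum at 24 h was 803 ± 19.9 FPKM without and 880 ± 9.92 FPKM with TPN, and 587 ± 10.7 and 677 ± 23.3 FPKM at 144 h (SD, n = 3). Exposed libraries were above untreated ones at both times without overlap. The sum mostly follows its abundant genes and is not a rise of every member. With TPN the mean of MGST1 went from 180 to 245 FPKM at 24 h and from 111 to 175 FPKM at 144 h. GSTO1 went from 293 to 313 and from 197 to 221 FPKM. The means of MGST2, GSTK1 and GSTZ1 were lower with TPN at both times, and those of GSTA1 and MGST3 at 24 h. At 24 h the microsomal genes supplied 49.1% of the sum without and 51.8% with TPN, and at 144 h 52.2% and 53.5%. GSTO1 supplied 36.5% and 35.5% at 24 h, and 33.6% and 32.6% at 144 h. The alpha class was a minor part, at 3.41%, 3.30% and 3.41% in the first 3 groups, and 5.56% with TPN at 144 h. Within the alpha class, the sum at 144 h was 18.88 to 21.27 FPKM without and 34.48 to 40.11 FPKM with TPN, although GSTA4, which made up most of it in untreated spheroids, was not called.

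**Figure D3:**
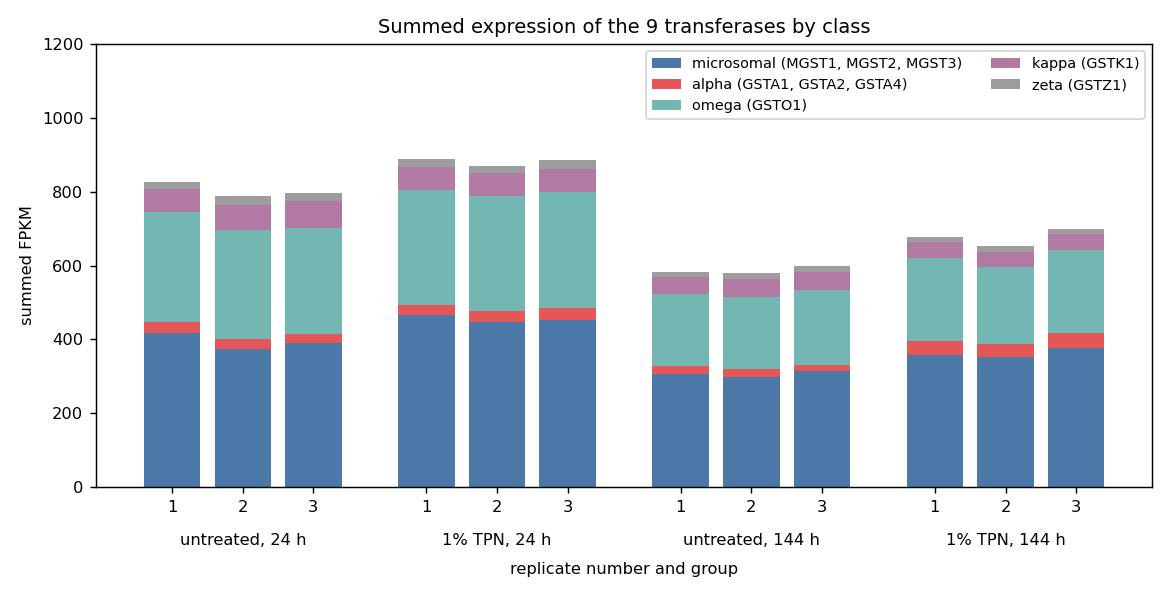
Summed FPKM (vertical axis, from 0) of the 9 transferase genes in each of the 12 libraries, stacked by class, with 1 bar per library. The total is lower at 144 h than at 24 h and higher with TPN at each time, and the microsomal genes and GSTO1 fill most of every bar.

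The members of the family did not follow 1 common pattern over the 12 libraries. GSTA4, GSTO1, GSTK1, GSTZ1 and MGST3 ran together, with pairwise Pearson correlations of log2(FPKM + 0.1) from 0.76 to 0.94. GSTA2 correlated negatively with all 5 of them, from -0.16 to -0.60, and at 0.66 with GSTA1. MGST1 correlated at 0.78 with GSTA1 and at 0.86 with GSTO1. These values are descriptions over libraries of only 4 groups, so they largely restate the group means. Across all genes tested, those whose levels ran closest to GSTA1 were REEP2 (r = 0.985), LIPA, the lysosomal acid lipase (0.980), and SSTR3, a somatostatin receptor (0.979). Those closest to GSTA2 were ACSL5, a long-chain acyl-CoA synthetase (0.985), UGT1A1, the bilirubin glucuronosyltransferase, which shares exons with its neighbours (0.984), and the histone gene H2BC21 (0.980). For MGST1 they were NQO1, a quinone reductase (0.990), ALDH3A2, a fatty aldehyde dehydrogenase (0.987), and ALAS1, the first enzyme of heme synthesis (0.986). GSTO1 ran closest to TSPYL1, SOD1 and FAH (0.994 to 0.995), whereas the best match of MGST2 was EIF3M at 0.937.

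Among other transferases and related membrane proteins, 15 of 18 listed genes were in the table and 9 passed the filter. At 24 h none of the 9 was called by limma (0 also at an unadjusted p below 0.05), beside 10.5% of all genes. At 144 h 1 rose and 2 fell, while 52.5% of all genes were called. The genes, which were named after their values were seen, were GSTO2, the second omega enzyme (0.48, adjusted p = 0.00183), GSTM4 of the mu class (-0.16, adjusted p = 0.0411) and GSTCD, a protein with a transferase-like domain (-0.31, adjusted p = 0.00349). GSTM1 was listed at or near 0 in all groups (group means of 0.07 FPKM or less). GSTP1, the pi-class enzyme and also named after its values were seen, was the gene of this list that fell most with culture time, from 9.90, 10.75 and 13.26 FPKM to 1.33, 1.47 and 1.22 FPKM (-2.98, adjusted p = 5.55e-09). Its value with TPN at 144 h was -0.44 (adjusted p = 0.0557).

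Of 9 tested genes that supply glutathione, 7 rose at 24 h, against 5.04% of all genes. At 144 h 7 rose and 2 fell, against 24.2% and 28.3% of all genes, and the list medians were 0.24 and 0.64. This list, like the others, was chosen with earlier results of these data known, so its distance from the shares over all genes is only descriptive. GCLM and GCLC encode the subunits of the rate-limiting enzyme of glutathione synthesis. On the log2 scale, GCLM rose by 1.69 after 24 h and by 2.14 after 144 h, and GCLC by 1.11 and 1.63. SLC7A11, the cystine importer, rose by 1.14 and 1.01, and GSR, which regenerates reduced glutathione, by 0.56 and 0.75. These 4 genes changed at 24 h, when GSTA1 and GSTA2 were not called.

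Downstream of conjugation, 17 tested genes for mercapturate formation and conjugate export gave 4 rises and 3 falls at 24 h (10.5% of all genes were called) and 8 rises and 6 falls at 144 h (52.5% of all genes). ABCC2 and ABCC3, which export conjugates across the canalicular and the basolateral membrane of hepatocytes, rose at both times, ABCC2 by 0.74 and 0.98 and ABCC3 by 0.48 and 1.48. GGT5, a gamma-glutamyl transferase at a group mean of at most 1.02 FPKM, rose at 144 h (1.15, adjusted p = 2.53e-04), and by 0.43 with a pseudocount of 1. ACY3, an aminoacylase that removes the acetyl group of mercapturates, fell at 144 h (-0.69, adjusted p = 2.26e-04). A list of other enzymes, most of which use glutathione, gave 2 rises and 1 fall at 24 h and 4 rises and 10 falls at 144 h out of 16 tested. The shares of all genes were 5.04% up and 5.46% down at 24 h, and 24.2% up and 28.3% down at 144 h. The falls at 144 h include PXDN (-0.45, adjusted p = 0.0313), a heme peroxidase that is not a glutathione enzyme and is named for that reason. In this list, the peroxidase GPX2 rose by 0.20 and 0.98, and the glutaredoxin GLRX by 0.25 and 0.66. Of 4 tested genes for glutathione breakdown, none was called at 24 h (0 also at an unadjusted p below 0.05), beside 10.5% of all genes. At 144 h 1 rose, CHAC1, which cleaves glutathione (0.83, adjusted p = 3.54e-04), and 2 fell, among them OPLAH, the 5-oxoprolinase (-0.70, adjusted p = 1.62e-06), again beside 52.5% of all genes called.

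**Figure D4:**
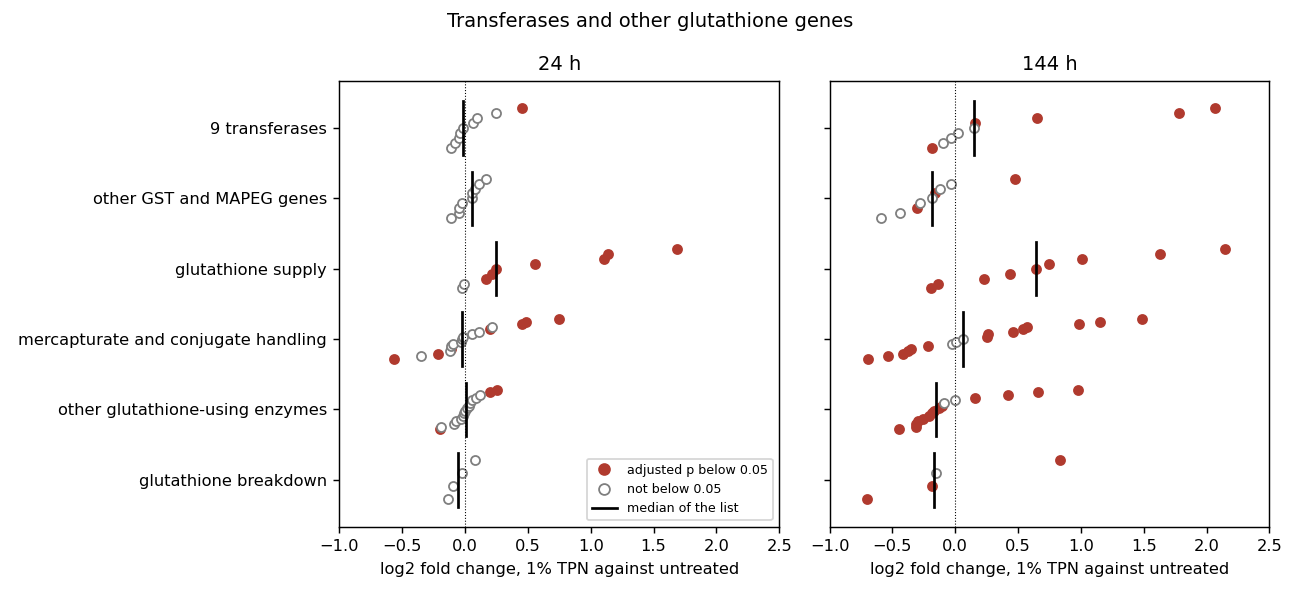
Log2 fold change, 1% TPN against untreated (horizontal axes), of the 9 transferases and of the tested genes in 5 lists of other glutathione genes, at 24 h (left) and 144 h (right). Filled points passed an adjusted p of 0.05 and vertical bars are list medians, which for glutathione supply were 0.24 and 0.64.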

How the data were processed

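Human liver spheroid co-cultures were sequenced by the authors on the DNBSEQ platform from strand-specific libraries. The authors filtered the reads, mapped them with HISAT2 2.0.4 and Bowtie2 2.2.5 (versions from the submitters' processing notes) against GRCh38.p13, and calculated FPKM values with RSEM, which divides fragments shared between similar genes by estimation. The FPKM values were used as deposited, 1 column per library. Of 16725 lines in the table, 20 held annotation text without a gene and were dropped.

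The test used limma 3.58.1 (R 4.3.3; lmFit for the 4 groups, eBayes with trend) on log2(FPKM + 0.1) of the 11713 genes whose FPKM averaged at least 0.5 in the 12 libraries. It was two-sided, with Benjamini-Hochberg adjustment over all genes tested. The count model used in the study needs read counts and could not be run on FPKM. An adjusted p below 0.05 was called, and DEGs also had an absolute log2 fold change above 0.58. The pseudocount of 0.1 understates changes of low genes. Errors after ± are SEs for log2 fold changes and SDs for levels. Low FPKM values of 164 short genes served to estimate the depth, which was chosen to bring them closest to whole numbers of fragments. With that choice, 91.1% of 395 values lay within 0.15 of a whole number, a share that describes the fit and is no independent check. Transcript lengths came from GENCODE, and the lengths used by the authors are not known. The procedure was tested on simulated data, in which the lengths were known.

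The members, the 5 lists of glutathione genes and the markers were chosen with earlier results of these data known. Besides the members and markers, genes were named when they were DEGs of a list (up to the 4 with the largest change), or were among the 3 genes that correlated best with a member, and exceptions are stated. Promoter windows came from RefSeq and transcripts from GENCODE. Alternatives changed the pseudocount, filter, scaling, model and replicates used. Python 3.11.15 with pandas 2.3.3 and Biopython 1.88 served for tables and alignments. Some items are not reported here.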

Additional observations from a re-analysis of the deposited data

Results flagged for a closer look

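The effect of TPN differed between the exposure times for 3 of the 9 genes by the interaction term of the limma model. This was close to the 30.4% of all genes tested that were called for it. The effect at 144 h exceeded that at 24 h by 1.82 (log2) for GSTA1, 1.82 for GSTA2 and 0.20 for MGST1, with adjusted p-values of 2.63e-06, 5.45e-06 and 0.0135 over 3 libraries a group. Exposed libraries were above untreated ones without overlap at 144 h for each of these genes, and at 24 h for MGST1. Over all genes tested, the groups did not overlap for 57.3% at 144 h and for 29.9% at 24 h.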

How the results depend on the processing

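Across 22 alternatives (12 of them leaving out 1 library), the 36 member comparisons gave 779 values, of which 747 kept their direction and their side of the threshold, 2 lost a call, 14 gained one and 16 changed sign. The rises of GSTA1, GSTA2 and MGST1 at 144 h, of MGST1 at 24 h and their 3 differences between times held in every alternative run, with GSTA1 at 144 h between 1.36 and 1.84, GSTA2 between 1.86 and 2.18 and MGST1 between 0.62 and 0.68. GSTA1 was too low to be tested when a mean of at least 5 FPKM was required, which left 1 DEG for the difference between times. The number of members called at 24 h was 2 with quantile normalization or with only the groups compared, and 1 to 2 when a library was left out (2 without the first untreated 24 h library or the second exposed 144 h library). DEGs over time without TPN numbered 1 under median-ratio scaling and 1 under quantile normalization. For the difference between times, restricting the model to the groups compared changes nothing, since all 12 libraries belong to it.

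All values that changed sign were not called as reported, apart from ABCC2 over time, and under median-ratio scaling MGST2 and OPLAH over time were called in the opposite direction (adjusted p = 0.0306 and 0.0420). When each library was left out in turn, GSTA4 ranged from -0.020 to 0.077 at 144 h and from -0.10 to 0.011 for the difference, GSTZ1 from -0.12 to 0.015 at 24 h, from -0.095 to 0.011 at 144 h and from -0.051 to 0.083 for the difference, MGST2 from -0.073 to 0.041 at 24 h and from -0.11 to 0.0084 over time, CHAC1 from -0.016 to 0.24 at 24 h and OPLAH from -0.036 to 0.030 over time. Over time without TPN, median-ratio scaling and quantile normalization gave 0.13 and 0.055 for MGST2, 0.073 and 0.052 for ABCC2 and 0.16 and 0.11 for OPLAH. The cause was not tested.

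Same-number correlations of deviations from the group means were low, with 2 of 9 above 0.1 (range -0.083 to 0.15). However, 6 of 9 libraries correlated best with their own number, and the untreated 24 h libraries enter these 9 more than once. Whether same-numbered libraries pair is not settled by these values. With the replicate block, 1, 5, 3 and 8 members were called at 24 h, at 144 h, for the difference and over time, the eighth being GSTA2 over time (adjusted p = 0.0338), and the other lists gave 134 calls over the 4 comparisons, compared with 135 without it.

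Over all genes, DEGs numbered 107 at 24 h, and 58 with a pseudocount of 1 or 59 with at least 5 FPKM required. At 144 h they numbered 1110, and 698 and 523 under these settings. For the difference they numbered 687, and 435 and 282, and over time 2230, and 1337 with at least 5 FPKM. Depth limits GSTA1 most, with about 23 fragments in its lowest library.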
